A study of Mus musculus with 30 samples.

Results

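Wwc1, the gene for the scaffold protein KIBRA, and 7 further genes of the Hippo pathway are described here in 3 tissues of mice with and without the liver fatty acid-binding protein (LFABP). The genes were its paralog Wwc2, the coactivators Yap1 and Wwtr1 (TAZ), the kinases Lats1 and Lats2, the adaptor Amotl2 and the transcription factor Tead1, 8 of the 41549 genes in the deposited table. They were chosen because Wwc1 was near 0 in interscapular brown adipose tissue (iBAT) of wild-type mice and well above it in the libraries labelled LFABP-/-, so the set was chosen on the Wwc1 values of the genotype comparison in iBAT. Values from that comparison are therefore given as a description, without a test.

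The mice were male and on a C57Bl/6J background, either wild type (WT) or LFABP-/-, which lack the gene for LFABP, Fabp1, in the whole body. All were 2 months old when a diet with 45% of its kcal from fat began, stayed on it for 12 weeks, were housed in small groups in shared cages and were fasted for 4 h before tissue was taken. Inguinal white adipose tissue (iWAT), iBAT and liver came from the same 10 mice, 5 per genotype, so each group held 5 libraries from separate mice. RNA was measured by poly(A) RNA-seq of whole tissue, and in such bulk samples fewer cells of a type and less RNA per cell cannot be told apart. Values were on the TPM (transcript abundance) scale, which corrects for gene length and fixes the total of each library, so a gene's value is a share of its library's RNA and levels of different genes can be compared.

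In the Hippo pathway the kinases MST1 and MST2 activate LATS1 and LATS2, which phosphorylate the coactivators YAP and TAZ and keep them in the cytoplasm. Unphosphorylated YAP and TAZ enter the nucleus and drive transcription with the TEAD factors, among them TEAD1. KIBRA and its paralog WWC2 bind LATS kinases and promote their activity, and AMOTL2, an angiomotin family member, holds YAP and TAZ at cell junctions and the actin skeleton. The pathway is known for the control of organ size in the liver, and TAZ is known to restrain the fat cell regulator PPARγ.

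In GRCm38, Wwc1 spans chr11:35838400-35980527 on the minus strand, and its transcript Wwc1-201 has 23 exons. Promoter windows from 250 bases before to 50 bases after the annotated start were taken from RefSeq (GRCm38.p6) for 7 of the 8 members, Tead1 not among them. The windows of the Wwc genes and of the coactivators are printed because the paralog and coactivator pairs are compared below, and their last 50 bases lie in the first exon. All 4 genes are on the minus strand and are written 5′ to 3′ on it. Capitals mark matches, on either strand, to the core of the TEAD binding site (CATTCC), the nuclear receptor half-site (AGGTCA), the E-box (CACGTG) or the TATA box (TATAAA).
Wwc1, chr11:35980478-35980777: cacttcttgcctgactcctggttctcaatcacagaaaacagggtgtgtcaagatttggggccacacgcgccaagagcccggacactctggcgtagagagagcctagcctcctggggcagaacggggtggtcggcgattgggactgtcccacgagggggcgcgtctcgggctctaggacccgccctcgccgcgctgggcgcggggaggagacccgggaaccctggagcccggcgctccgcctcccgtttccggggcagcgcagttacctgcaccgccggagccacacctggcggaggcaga
Wwc2, chr8:47990495-47990794: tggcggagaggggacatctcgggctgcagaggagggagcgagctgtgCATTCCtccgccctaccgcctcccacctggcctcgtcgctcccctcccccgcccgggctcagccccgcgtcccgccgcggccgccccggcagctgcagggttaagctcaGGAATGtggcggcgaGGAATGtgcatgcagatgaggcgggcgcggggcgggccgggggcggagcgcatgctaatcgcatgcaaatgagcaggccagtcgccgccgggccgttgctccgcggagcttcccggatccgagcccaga
Yap1, chr9:8004547-8004846: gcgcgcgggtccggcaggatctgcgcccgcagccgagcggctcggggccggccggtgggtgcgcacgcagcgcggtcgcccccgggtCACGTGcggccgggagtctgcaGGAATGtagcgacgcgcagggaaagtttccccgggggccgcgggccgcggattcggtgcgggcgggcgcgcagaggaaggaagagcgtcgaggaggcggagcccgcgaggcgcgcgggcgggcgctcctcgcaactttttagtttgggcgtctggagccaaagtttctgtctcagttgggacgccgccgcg
Wwtr1, chr3:57575861-57576160: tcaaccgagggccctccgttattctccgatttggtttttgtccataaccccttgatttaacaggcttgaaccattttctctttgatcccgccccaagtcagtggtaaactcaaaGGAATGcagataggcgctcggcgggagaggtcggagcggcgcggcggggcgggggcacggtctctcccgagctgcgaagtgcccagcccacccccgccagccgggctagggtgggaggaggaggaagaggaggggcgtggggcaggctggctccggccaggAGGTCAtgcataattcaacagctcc

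The Wwc1 window held none of the 4 motifs and 27 CpG dinucleotides, against a median of 7 over all promoters of that table. The Wwc2 window held 3 TEAD cores, which began 203, 94 and 79 bases before the start. The Yap1 window held a TEAD core 141 bases and an E-box 163 bases before the start, among 49 CpG. The Wwtr1 window held a TEAD core 136 bases before the start and a nuclear receptor half-site 25 bases after it. Among the 7 members with a window, the TEAD core was found in 5 (Wwc2, Yap1, Wwtr1, Lats2 and Amotl2), and it was found in 14.7% of all 32851 promoters. The half-site was present in 16.3%, the E-box in 7.15% and the TATA box in 13.6% of them. These are matches of letters and not sites shown to be bound.

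Fabp1, the deleted gene, was checked in every library first. In liver it lay between 9165.5 and 12697.6 in WT and at 51.8, 13.7, 0.3, 0.6 and 0.2 in LFABP-/-. In iWAT it lay between 1.9 and 23.9 in WT and between 0.2 and 0.9 in 4 LFABP-/- libraries, but at 196.1 in the library labelled LFABP-/- replicate 1. In iBAT it did not separate the labels: WT libraries held 1.4, 0.2, 0.4, 5.1 and 8.7 and those labelled LFABP-/- held 0.4, 2.0, 21.2, 15.0 and 13.1, so the genotype of iBAT libraries rests on their labels. Nnt, which carries a deletion in C57BL/6J, is listed as Nnt_1 and was higher in LFABP-/- than in WT in iWAT (11.4 to 17.2 against 5.5 to 7.9) and in liver (35.4 to 44.9 against 12.9 to 25.9). In iBAT it overlapped, at 0.6, 0.6, 1.5, 1.8 and 1.4 in WT and 1.9, 3, 3.3, 0.8 and 5.3 in the libraries labelled LFABP-/-. Whether other alleles differed with genotype was not tested. Of the labelled tissues, iBAT held 10 brown adipocyte markers summed to between 14094.6 and 18517.9. Mitochondrially encoded genes took 53.3% to 60.1% of an iBAT library's total, against 13.2% to 20.6% in iWAT and 12.1% to 18.1% in liver. This lowers the share left to every other gene.

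Wwc1 in iBAT was at or near 0 in WT, low in iWAT of both genotypes, and highest in liver. The iBAT WT libraries held 0.1, 0.1, 0.1, 0.2 and 0 and the iBAT libraries labelled LFABP-/- held 5.9, 6.3, 5.3, 3.6 and 5.6. All 5 labelled LFABP-/- were above all 5 WT, with the lowest of them 18 times the highest WT value. The means were 0.1 ± 0.0707 (SD, n = 5) and 5.34 ± 1.04 (SD, n = 5), a ratio of 53.4. Values were deposited to 1 decimal, and with every WT value at the top of its rounding interval and every LFABP-/- value at the bottom the ratio would be 35.3. On the log2(value + 0.5) scale, which understates changes from near 0, the difference was 3.27 (SE 0.15). Within each of the 2 prefixes that the library names carry, this difference was 3.46 and 3.15. The 11614 genes tested in iBAT had a mean of at least 1 there, which Wwc1 reached only through the libraries labelled LFABP-/-. Because the gene was chosen on this difference, its place among those genes is not given. From high to low the groups ran liver, iBAT labelled LFABP-/-, iWAT and iBAT WT, where the genotypes overlapped within liver and within iWAT and 1 iWAT library (3.9) reached into the range of the iBAT libraries labelled LFABP-/-.

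**Figure D1:**
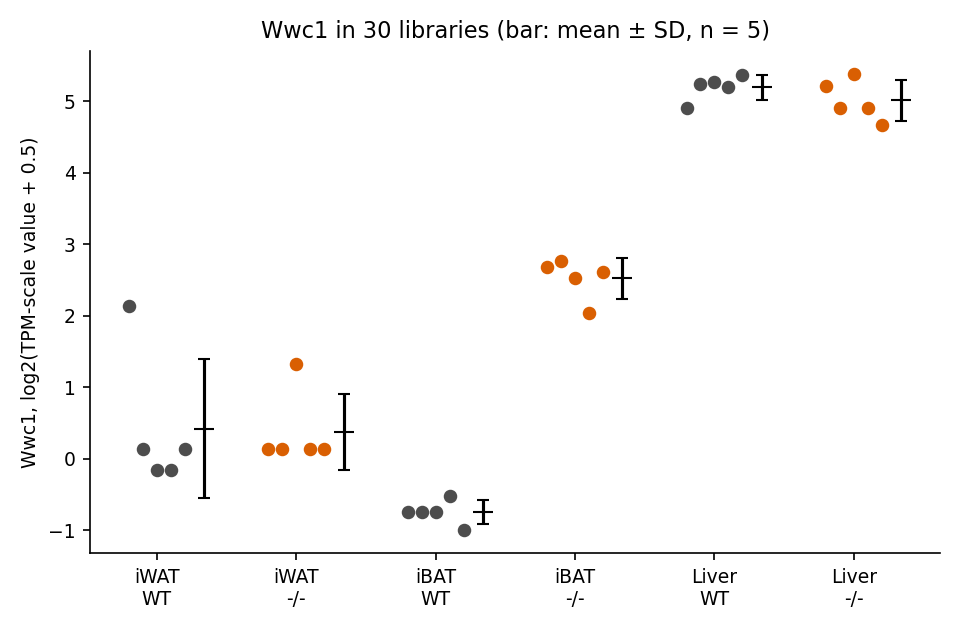
Wwc1 as log2(value + 0.5) on the TPM scale in each of the 30 libraries (points), by tissue and genotype (-/- is LFABP-/-), with the group mean and SD as bars (n = 5). The 5 iBAT libraries labelled LFABP-/- hold values between 3.6 and 6.3 and the 5 iBAT WT libraries between 0 and 0.2, while liver of both genotypes holds 24.9 to 41.4.

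In iWAT, Wwc1 held 3.9, 0.6, 0.4, 0.4 and 0.6 in WT and 0.6, 0.6, 2.0, 0.6 and 0.6 in LFABP-/-. The groups overlapped, the difference was −0.05 (SE 0.47) and the adjusted p was 0.991 (limma with Benjamini-Hochberg adjustment over all genes tested). WT replicate 1 and LFABP-/- replicate 3 stood apart, and the same 2 libraries had the highest sums of 10 epithelial markers in iWAT, 214.7 and 151.6 against 1.9 to 12.7 in the other 8. Epcam, a defining epithelial marker, was 23.2 and 20.1 in those libraries. In liver, Wwc1 held 29.4, 37.5, 38.2, 36.2 and 40.8 in WT and 36.6, 29.4, 41.4, 29.5 and 24.9 in LFABP-/-. These groups also overlapped, with a difference of −0.18 (SE 0.14, adjusted p = 0.415, limma). The liver level was 27.4-fold above that of iWAT in WT on the log2(value + 0.5) scale (adjusted p = 2.04e-14, limma), while the median gene was 1.17 log2 units lower in liver.

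Hepatocyte markers moved with the genotype label in iBAT beside Wwc1. The 10 markers, which include albumin and other genes of secreted liver proteins, summed to 67.3, 3.5, 5, 45.2 and 96.3 in WT and to 1237.5, 1768.5, 1589.3, 291.8 and 178.7 in the libraries labelled LFABP-/-. Every library labelled LFABP-/- was above every WT library, and replicates 1 to 3 were the highest. The median marker stood at 1.27%, 1.82%, 1.56%, 0.292% and 0.178% of its mean in LFABP-/- liver in these libraries, and between 0.00172% and 0.0655% of its mean in WT liver in the WT libraries. Wwc1 in the same 5 libraries stood at 18.2%, 19.5%, 16.4%, 11.1% and 17.3% of its liver mean. The iWAT library labelled LFABP-/- replicate 1 held 2244.7 of the summed hepatocyte markers, more than any iBAT library, and 0.6 of Wwc1. With the hepatocyte markers as a covariate the Wwc1 difference in iBAT was 3.09, and without the 3 libraries highest in these markers it was 3.07. These 2 fits, here and for other genes below, are a description. The mean log2(value + 0.5) of the markers was at most 1.97 in WT and at least 2.71 in the libraries labelled LFABP-/-. With no overlap, the fits cannot tell the label from the markers. The part of liver RNA in the iBAT values was not tested. Epithelial markers in iBAT summed to 0.5 to 1.2 in WT and 0.9 to 8.7 in LFABP-/-, Epcam was at most 0.1, and 4 to 7 of the 10 markers were at 0 in each library labelled LFABP-/-.

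**Figure D2:**
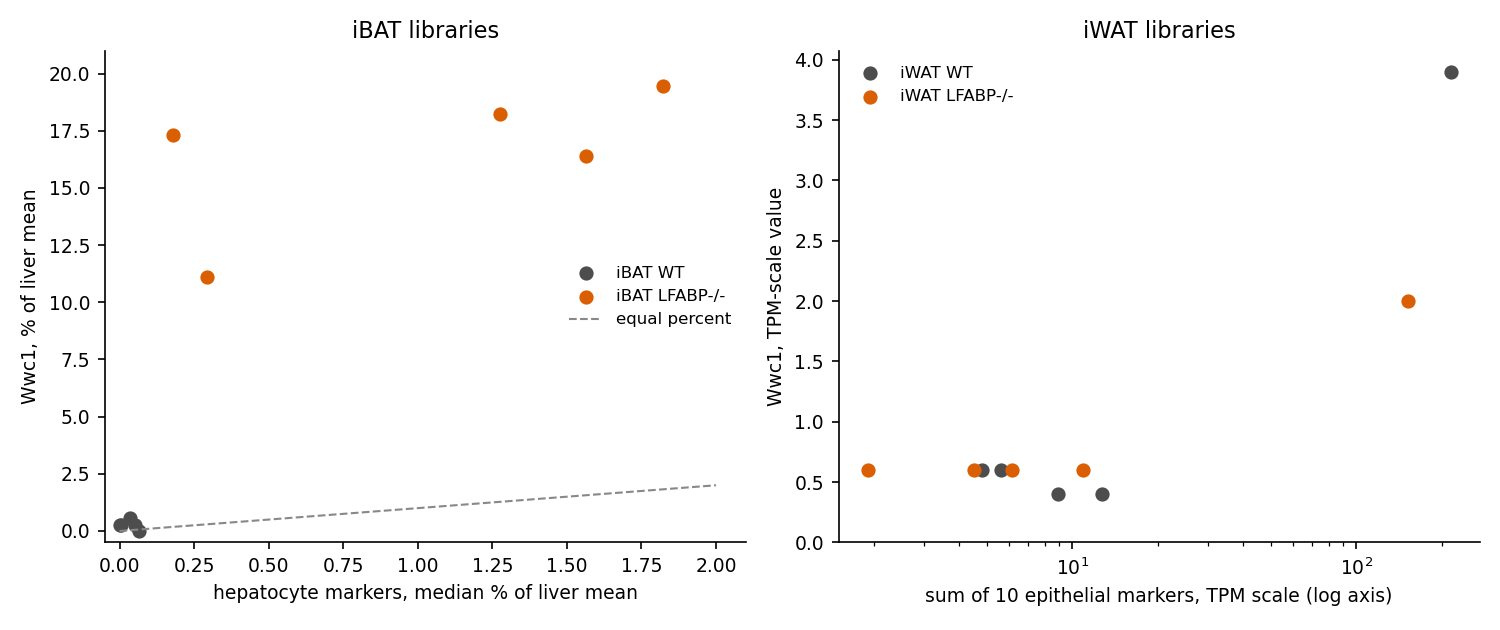
Left, Wwc1 against the median hepatocyte marker in iBAT, each as a percent of its mean in liver of the same genotype, with a dashed line where both percentages are equal. Right, Wwc1 value (TPM scale) against the sum of 10 epithelial markers (log axis) in the iWAT libraries. In the left panel the 5 libraries labelled LFABP-/- lie at 11.1% to 19.5% of the liver mean for Wwc1 and at 0.178% to 1.82% for the markers; in the right panel the 2 iWAT libraries with raised epithelial markers hold 3.9 and 2.0 of Wwc1.

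Over the 30 libraries and 15915 genes, Mal2, a membrane trafficking protein of epithelial cells, had the pattern most like that of Wwc1 (Pearson r 0.961 of log2(value + 0.5) over 30 libraries, across 3 tissues). Mal2 held 4.4, 4.7, 2.6, 3.0 and 3.2 in iBAT WT and 7.7, 8.2, 9.1, 7.8 and 9.6 in the libraries labelled LFABP-/-. Acot12, a cytosolic acetyl-CoA thioesterase of liver, followed with r 0.949, and its iBAT means were 0.5 and 4.56. The next were Urah (0.945), a uric acid pathway hydrolase, and the coagulation genes Fgg (0.944) and F12 (0.944). By Spearman's rho the first 5 genes were others, with 0 of 5 shared. The points share tissues and mice, each of these genes had its highest values in liver, and likeness within a tissue was not computed. Among the other members, r with Wwc1 ran from −0.83 for Tead1 and −0.73 for Wwc2 to 0.03 for Yap1.

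The 3 nearest protein-coding genes with values on each side of Wwc1 on chromosome 11 did not share its pattern in size. In iBAT, as a description, Rars, a tRNA ligase gene 3894 bp away, differed by 0.37 and Pank3, a coenzyme A synthesis kinase, by 0.35. Mat2b, the regulatory subunit of methionine adenosyltransferase, lies 4698787 bp away and differed by −0.39. Fbll1, Tenm2 and Hmmr (4720868 bp away) were below the filter, a mean of 1 over the libraries of the tissue. None of the neighbours tested in iWAT or liver passed adjusted p under 0.1 (limma).

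Wwc2, the paralog, was highest in iWAT and lowest in liver. In liver it held 3.0, 3.8, 3.4, 3.3 and 4.4 in WT and 2.3, 2.6, 2.7, 2.5 and 2.3 in LFABP-/-. Every LFABP-/- library was below every WT library. The means were 3.58 ± 0.54 and 2.48 ± 0.179 (SD, n = 5 each), a difference of −0.45 (SE 0.10, adjusted p = 0.0284, limma), and the exact two-sided permutation p of 0.00794 is the smallest that 5 against 5 can give. The difference was −0.40 and −0.53 within the 2 prefixes of the library names. In iWAT, Wwc2 lay between 15.0 and 26.6 in WT and between 19.5 and 27.1 in LFABP-/-, and the groups overlapped (0.05, SE 0.16, adjusted p = 0.973, limma). In iBAT it lay between 5.3 and 7.5 in WT and between 6.4 and 9.8 in the libraries labelled LFABP-/-.

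Wwc1 made up 90.3% to 94.1% of the summed Wwc1 and Wwc2 value in the liver libraries and 1.78% to 14.1% in iWAT WT. In iBAT its part was 0% to 2.90% in WT and 29.8% to 47.4% in the libraries labelled LFABP-/-. Liver lay at the high end, iBAT WT and iWAT at the low end, and the iBAT libraries labelled LFABP-/- between them.

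Yap1 and Wwtr1, the coactivators, were both above their WT range in every iBAT library labelled LFABP-/-. Yap1 held 9.1, 8.0, 8.0, 9.5 and 8.6 in WT and 20.4, 12.9, 15.7, 15.4 and 14.1 in LFABP-/-, a ratio of means of 1.82 and a difference of 0.81 (SE 0.11). Wwtr1 held 18.3, 19, 19.6, 16 and 16.9 in WT and 44.3, 35.5, 33.2, 36.8 and 26 in LFABP-/-, a ratio of means of 1.96 and a difference of 0.93 (SE 0.12). Neither gene's groups overlapped. With the hepatocyte markers as a covariate the differences were 0.64 for Yap1 and 0.80 for Wwtr1, and without the 3 libraries highest in those markers 0.74 and 0.77. Of other cell types, 7 fibroblast markers summed to 131.1 to 350.8 in WT and 94.6 to 126 in LFABP-/-, which do not overlap and run the other way, and 8 endothelial markers to 159.6 to 216.1 and 118.2 to 189.5. The 10 brown adipocyte markers ran the same way as Yap1 and Wwtr1. Their mean log2(value + 0.5) was 6.41 to 6.84 in WT and 6.94 to 7.43 in LFABP-/-, without overlap. Their sums, 14094.6 to 16604.8 and 15148.5 to 18517.9, overlapped. A list of 9 general adipocyte markers ran the other way. Its mean log2(value + 0.5) was 8.50 to 8.80 in WT and 7.86 to 8.42 in LFABP-/-, without overlap. Its sums, 7694.2 to 8868 and 6099.4 to 8127.3, overlapped. The part of these markers in the values was not tested.

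**Figure D3:**
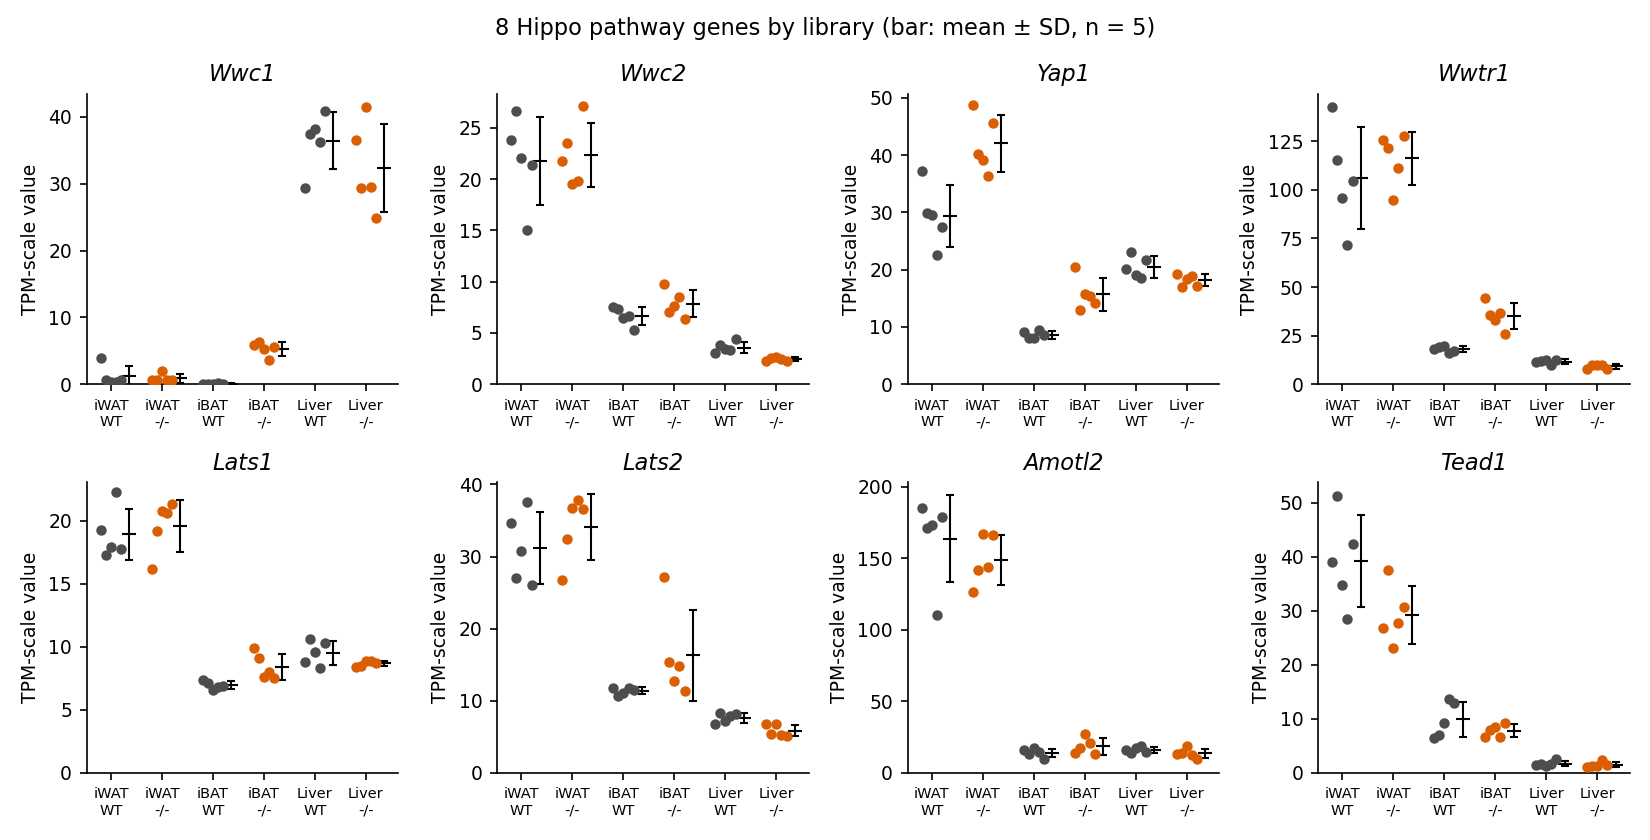
Value (TPM scale) of each of the 8 genes in every library (points), by tissue and genotype (-/- is LFABP-/-), with the group mean and SD as bars (n = 5). Wwc1 has its highest values in liver, up to 41.4, whereas the other 7 genes have theirs in iWAT, up to 185.3 for Amotl2.

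In iWAT, Yap1 held 37.3, 29.9, 29.6, 22.5 and 27.5 in WT and 48.7, 40.2, 39.2, 36.4 and 45.6 in LFABP-/-. WT replicate 1 lay above the lowest LFABP-/- library, and the other 4 WT libraries lay below all 5. The means were 29.4 ± 5.34 and 42.0 ± 5.01 (SD, n = 5 each), a ratio of 1.43 and a difference of 0.52 (SE 0.14). Over all genes this did not pass (adjusted p = 0.150, limma), with an exact two-sided permutation p of 0.0159 for the gene alone. With lymphocyte markers as a covariate the difference was 0.60 and the adjusted p 0.0127, and without WT replicate 1 the adjusted p was 0.0649 (limma). It did not pass in the libraries without raised lymphocyte markers (0.58, adjusted p = 0.321), with skeletal muscle markers as a covariate (0.55, 0.270) or under median-ratio scaling (0.48, 0.437, limma). The 10 lymphocyte markers summed to 582.1 to 2151.8 in 5 iWAT libraries (WT replicates 3 and 4, LFABP-/- replicates 2, 3 and 4) and to 20.9 to 41.9 in the other 5. Wwtr1 in iWAT lay between 71.4 and 142.8 in WT and between 95 and 127.7 in LFABP-/-, and the groups overlapped (0.16, SE 0.17, adjusted p = 0.912, limma).

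In liver, Yap1 lay between 18.5 and 23.1 in WT and between 16.9 and 19.3 in LFABP-/- (−0.17, SE 0.08, adjusted p = 0.191, limma). Liver Wwtr1 held 11.3, 11.9, 12.7, 9.7 and 12.3 in WT and 7.8, 10, 10, 10.1 and 7.8 in LFABP-/-. WT replicate 4 fell inside the LFABP-/- range and the other 4 WT libraries lay above it. The difference was −0.33 (SE 0.11, adjusted p = 0.0750, limma), and it was −0.22 with an adjusted p of 0.157 under median-ratio scaling, which sets each library to the same median ratio over genes. Leaving out WT replicate 1, 2, 3 or 5 or LFABP-/- replicate 1 or 5 also lost the call (adjusted p 0.104 to 0.168, limma).

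The genotype difference of Yap1 itself differed between liver and iWAT, by −0.69 (SE 0.16, adjusted p = 0.0234, limma interaction, in which 3.6% of 13925 genes passed, 135 higher and 366 lower, or 175 and 155 under median-ratio scaling). It was −0.51 with an adjusted p of 0.278 under median-ratio scaling, and −0.62 with 0.0613 after rescaling without mitochondrial and the most abundant genes. None of the other 7 members passed that interaction: the nearest was Wwc2, at −0.50 with an adjusted p of 0.181 (limma).

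Ratios within a library do not depend on its scaling, and 10 were compared after the values had been seen, 5 in iWAT and 5 in liver. Wwtr1 made up 78.1% ± 1.70 of the summed Yap1 and Wwtr1 value in iWAT WT and 73.4% ± 1.96 in iWAT LFABP-/- (SD, n = 5 each). These groups did not overlap, with an exact permutation p of 0.00794, the smallest the design can give, and a Benjamini-Hochberg value of 0.0794 over the 10 comparisons. In liver it made up 28.8% to 39.9%, and in iBAT 62.7% to 73.3%. The liver share of Wwc1 among the Wwc genes was 91.1% in WT and 92.7% in LFABP-/- (exact permutation p = 0.0317, 0.159 over the 10). In the other 8 comparisons the adjusted value was at least 0.291. Lats2 made up 59.4% to 64.7% of the summed Lats value in iWAT, 60.1% to 73.2% in iBAT and 37.0% to 48.8% in liver, and Tead1 16.9% to 30.7% of the summed Tead value in liver.

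**Figure D4:**
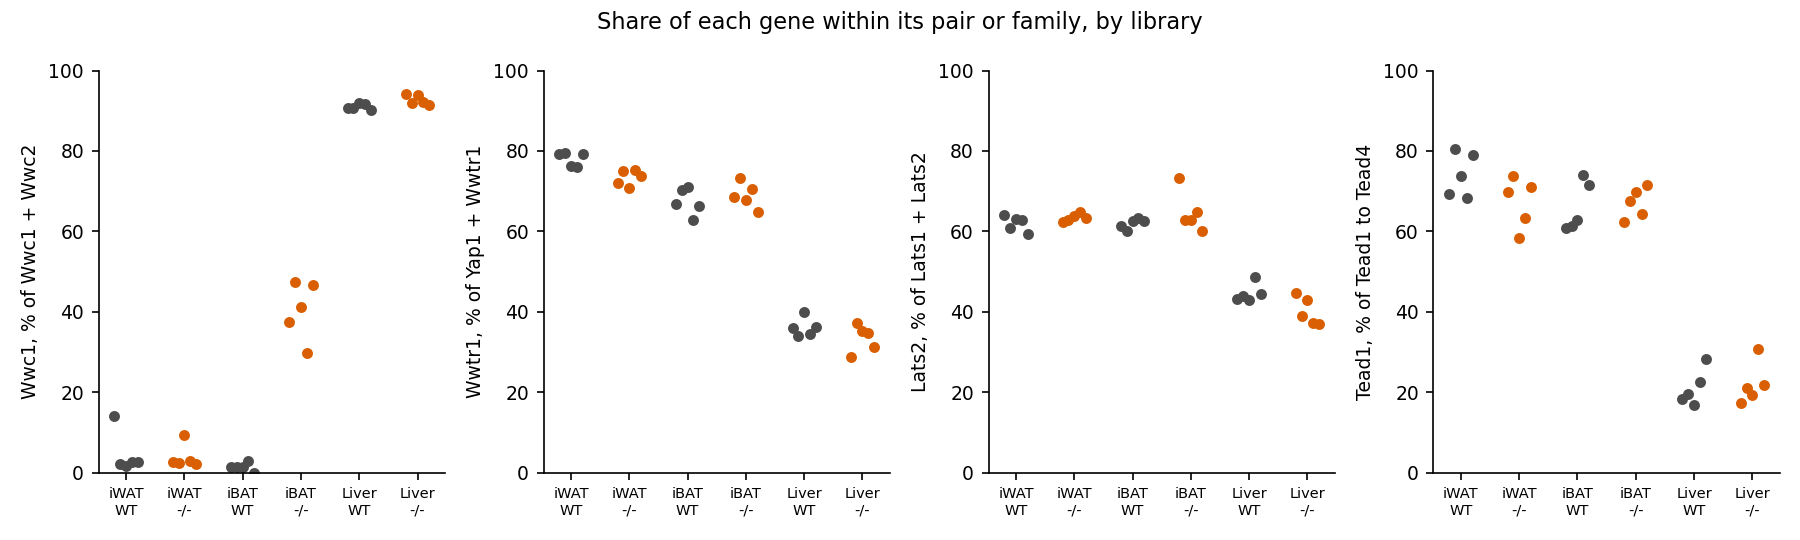
Percent that Wwc1, Wwtr1, Lats2 and Tead1 make up of the summed TPM-scale value of their pair, or of Tead1 to Tead4, in each library (points), by tissue and genotype (-/- is LFABP-/-). The share of Wwtr1 in iWAT is 78.1% in WT and 73.4% in LFABP-/- on average, and the share of Wwc1 in iBAT is 0% to 2.90% in WT and 29.8% to 47.4% in the libraries labelled LFABP-/-.

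The kinases Lats1 and Lats2, which phosphorylate YAP and TAZ, also had higher means in the iBAT libraries labelled LFABP-/-. Lats1 held 7.4, 7.1, 6.6, 6.8 and 6.9 in WT and 9.9, 9.1, 7.6, 8.0 and 7.5 in LFABP-/-. Its groups did not overlap, with a difference of 0.25 (SE 0.08), which was 0.08 with the hepatocyte markers as a covariate. Lats2 held 11.8, 10.7, 11, 11.8 and 11.5 in WT and 27.1, 15.4, 12.8, 14.8 and 11.3 in LFABP-/-. LFABP-/- replicate 1 stood far above the rest and replicate 5 lay within the WT range, so the difference of 0.43 (SE 0.19) was 0.85 within one prefix of the library names and 0.14 within the other. It was 0.04 with the hepatocyte markers as a covariate and 0.18 without the 3 libraries highest in them.

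In liver, Lats2 held 6.7, 8.3, 7.2, 7.9 and 8.2 in WT and 6.8, 5.4, 6.7, 5.3 and 5.1 in LFABP-/-. WT replicate 1 lay at or below LFABP-/- replicates 1 and 3 and the other 4 WT libraries above all 5, and the difference was −0.36 (SE 0.10, adjusted p = 0.0491, limma). It was −0.26 with an adjusted p of 0.130 under median-ratio scaling, and leaving out WT replicate 2, LFABP-/- replicate 4 or LFABP-/- replicate 5 gave adjusted p of 0.129, 0.113 and 0.113 (limma). Lats1 in liver lay between 8.3 and 10.6 in WT and between 8.4 and 8.9 in LFABP-/- (adjusted p = 0.340, limma). In iWAT the differences were 0.05 (SE 0.11) for Lats1 and 0.13 (SE 0.13) for Lats2, with adjusted p of 0.961 and 0.909 (limma), and both pairs of groups overlapped.

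Amotl2 and Tead1 did not pass the test in iWAT or liver, and their groups overlapped in all 3 tissues. Amotl2 held 15.7, 12.8, 17.2, 14.5 and 9.5 in iBAT WT and 14.1, 17.3, 26.8, 20.8 and 12.9 in LFABP-/-, a difference of 0.36 (SE 0.21) that was 0.05 and 0.69 within the 2 prefixes. Tead1 held 6.5, 7.0, 9.3, 13.6 and 13 in iBAT WT and 6.6, 7.9, 8.5, 6.7 and 9.3 in LFABP-/-, with 2 WT libraries above all others. Skeletal muscle markers in iBAT summed to between 206.3 and 35468.5 over the 10 libraries. They were highest in WT replicates 4 and 5 (17925.7 and 35468.5), the 2 libraries highest in Tead1. A fit with these markers as a covariate was run in iBAT, but its values for Amotl2 and Tead1 are not given here. The part of muscle in these values was not tested beyond that fit. In iWAT, Tead1 lay between 28.4 and 51.3 in WT and between 23.1 and 37.5 in LFABP-/- (−0.41, SE 0.17, adjusted p = 0.422, limma).

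**Figure D5:**
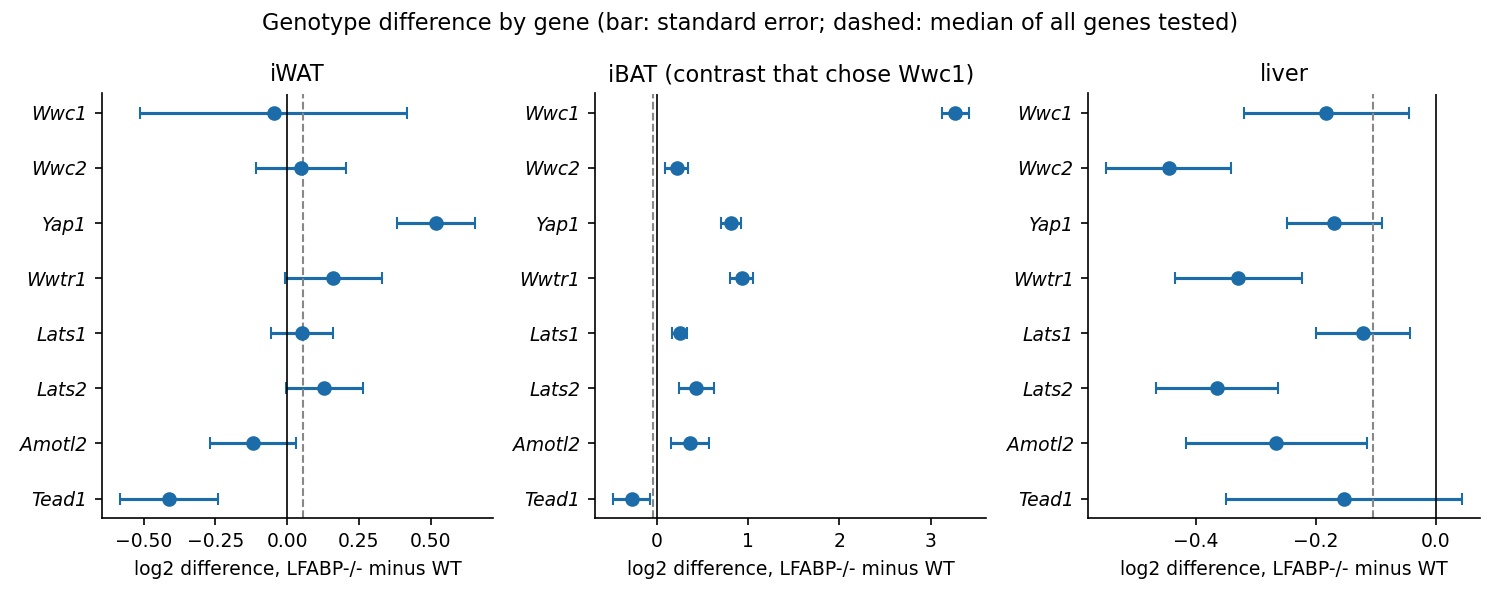
Genotype difference, LFABP-/- minus WT on the log2(value + 0.5) scale, of each of the 8 genes in each tissue, with bars for 1 SE (n = 5 per group) and the median of all genes tested as a dashed line. Wwc1 in iBAT stands at 3.27, Wwtr1 and Yap1 in iBAT at 0.93 and 0.81, and the liver values of Wwc2, Lats2 and Wwtr1 at −0.45, −0.36 and −0.33.

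Counted over the 8 members, 0 passed adjusted p under 0.1 between genotypes in iWAT, where 1.45% of 14668 genes did (limma), and 0 had groups that did not overlap (3.11% of all genes). At an unadjusted p under 0.05 (limma) stood 2 members in iWAT, Yap1 and Tead1, and 3 in liver, Wwc2, Wwtr1 and Lats2. The share of all genes at that unadjusted threshold is not given here, so these 2 counts have no background beside them. In liver, 3 members were lower (Wwc2, Lats2 and Wwtr1) and 0 higher, where 13.9% of 11629 genes were lower and 3.08% higher, and 16.9% passed in all. The groups of 1 member, Wwc2, did not overlap in liver, as for 10% of all genes (8.63% lower). The liver background moved with the scaling: 358 genes were higher and 1611 lower as deposited, 1160 and 837 under median-ratio scaling. In iBAT, where the rule drew on this contrast, the groups of 4 members (Wwc1, Yap1, Wwtr1 and Lats1) did not overlap, all higher in LFABP-/-, and 26.4% of all genes did not overlap, 12.1% higher. The median difference of the members and of all genes was 0.05 and 0.05 for iWAT. For iBAT these medians were 0.40 and −0.03, for liver −0.22 and −0.10. In liver, the 10 hepatocyte markers summed to 113684 to 134851 in WT and 83022.9 to 105562 in LFABP-/-, and mitochondrially encoded genes took 12.1% to 15.1% and 16.9% to 18.1% of the total. Neither range overlapped between genotypes, and their part in the lower liver values was not tested.

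Between tissues, most members were highest in iWAT. In WT mice, Amotl2 was 11.4-fold lower in iBAT than in iWAT, Wwtr1 5.64-fold, Tead1 3.91-fold and Yap1 3.23-fold, as folds of log2(value + 0.5) (adjusted p from 1.08e-15 to 6.82e-10, limma). Wwc2, Lats1 and Lats2 were also lower, by 1.62, 1.38 and 1.40 log2 units, which is close to the median of all genes, −1.35. In that comparison 91.9% of genes passed, with 1015 higher and 11776 lower (84.6%; 7.29% higher), and with 4642 higher and 5477 lower under median-ratio scaling. Under that scaling Wwc2, Lats1 and Lats2 no longer differed past the threshold (−0.27, −0.02 and −0.03, adjusted p = 0.149, 0.781 and 0.855, limma), and Yap1 stood at −0.33. In liver against iWAT, where 91.3% of genes passed, 77.6% lower and 13.7% higher (10810 and 1908, or 5527 and 5594 under median-ratio scaling), Wwc1 was higher and the other 7 members were lower. Tead1 was 18.1-fold lower, whereas Yap1 was 1.41-fold lower, less than the median gene (−1.17 log2 units). Under median-ratio scaling Yap1 and Lats1 were instead higher in WT liver than in iWAT, by 0.76 and 0.28. In liver against iBAT, Yap1 was 2.29-fold higher and Tead1 4.63-fold lower in WT (73.7% of genes passed, 40.1% higher and 33.6% lower, or 5582 and 4674, which became 3025 and 8272 after rescaling without mitochondrial and the most abundant genes), and Amotl2 did not pass (0.23, adjusted p = 0.276, limma).

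In LFABP-/- mice the order of tissues was the same for Wwc2, Wwtr1, Lats2 and Tead1, from iWAT to iBAT to liver. In liver against iWAT, where 93.0% of genes passed and 80.1% were lower (13% higher), Wwc1 was 4.64 log2 units higher (adjusted p = 3.37e-14, limma) and the other 7 members were lower, from −1.13 for Lats1 to −3.92 for Tead1. By median ratio, Yap1 and Lats1 stood at 0.25 and 0.28 in this comparison. In the libraries labelled LFABP-/-, Wwc1 was 2.15 log2 units higher in iBAT than in iWAT and 2.49 higher in liver than in iBAT. The former was 3.19 by median ratio and 3.10 rescaled without mitochondrial and the most abundant genes, and the latter 1.92 rescaled. The other 7 members were lower in iBAT than in iWAT, as 83.9% of genes were (92.6% passed and 8.67% were higher), from −1.10 for Lats2 to −3.03 for Amotl2, and under median-ratio scaling Wwc2, Yap1, Lats1 and Lats2 turned to 0.020, 0.10, 0.30 and 0.40. Wwtr1 and Tead1 no longer passed under that scaling (−0.20 and −0.35, adjusted p = 0.318 and 0.164, limma). In liver against iBAT (74.2% passed, 38.1% higher and 36.1% lower), Wwtr1 was 3.67-fold lower, compared with 1.53-fold lower in WT. Yap1 was 0.22 log2 units higher there, and it was −0.41 after rescaling.

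The other genes of the pathway were grouped into 6 lists with 97 genes in all. In iWAT, 88 were tested and 1 passed, lower in LFABP-/- as 0.77% of all genes were. It was Ptpn14, a phosphatase that binds YAP and is also a listed target. It held 30.1, 34.2, 31.9, 30.3 and 40.2 in WT and 18.1, 18.1, 17.7, 16.4 and 23.4 in LFABP-/-, with no overlap. The means were 33.3 ± 4.17 and 18.7 ± 2.70 (SD, n = 5 each), a difference of −0.82 (adjusted p = 0.0192, limma). Under median-ratio scaling the adjusted p was 0.111 and in the libraries without raised lymphocyte markers 0.307. Ccn1, a matricellular protein and a much used YAP target, was looked at after its values were seen: its iWAT means were 93.3 and 213, the groups did not overlap and the adjusted p was 0.123 (limma). Crim1, another listed target, went the other way. Its iWAT means were 67.8 and 52.1, its groups did not overlap either and the adjusted p was 0.108 (limma). The median difference of the 18 targets tested in iWAT was 0.036, against 0.054 for all genes.

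In liver, 72 of the 97 genes were tested, 20 were lower in LFABP-/- and 1 was higher (background 13.9% lower, 3.08% higher). Of the kinases, adaptors and scaffolds, 7 of 19 were lower, among them Taok3 (−0.69), a kinase upstream of MST, the junction scaffold Tjp1 (−0.43) and Nf2 (−0.32), which encodes Merlin, a partner of KIBRA. Of the polarity genes 3 of 12 were lower, with Pard3 at −0.45. Of the list of STRIPAK complex, Ajuba family and Rassf genes 5 of 20 were lower, with the kinase Stk24 at −0.55. Of the 13 targets, 2 were lower, Dock5 at −0.51 and Crim1 at −0.42. Of the KIBRA partners 2 of 8 were lower, Prkcz (−0.46), an atypical protein kinase C, and the scaffold Magi1 (−0.38). Tead3 was lower by 0.28 log2 units and Vgll4, a cofactor that competes with YAP for TEAD, was higher by 0.31. Tead3 did not pass by median ratio (adjusted p = 0.137) or with the replicate number as a block (0.119), and Vgll4 did not pass with no filter (0.137), with the block (0.185) or in 7 of the 10 fits with 1 library left out (limma). By median ratio Nf2 and Prkcz did not pass (adjusted p = 0.212 and 0.218), and with the block Magi1 did not (0.146, limma). With 1 library left out, Prkcz did not pass in 5 and Magi1 in 6 of 10 fits. Under median-ratio scaling 10 of the 72 passed, 3 higher and 7 lower.

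In iBAT, 72 of the genes were tested, and 16 were higher and 18 lower in the libraries labelled LFABP-/-, where 22.3% and 25.5% of all genes were. Igfbp3, a listed target, held 8.5, 9.2, 11, 10 and 9.4 in WT and 2.5, 2.3, 2.8, 2.0 and 3.8 in LFABP-/-. Prkci, an atypical protein kinase C that KIBRA binds, held 11.6, 11.6, 10.9, 9.0 and 8.8 in WT and 23.3, 18.4, 17.3, 16.9 and 15.1 in LFABP-/-. Neither gene's groups overlapped. Of the KIBRA partners 3 of 6 were higher and 0 lower, Prkci (0.78), Dlc1 (0.54) and Snx4 (0.42). Of the STRIPAK complex, Ajuba family and Rassf genes 6 of 20 were higher and 5 lower, with Ppp2ca at 0.50 and Rassf6 at −0.76. Of the kinases and scaffolds 5 of 20 were higher and 6 lower, with Mink1 at 0.35 and Map4k3 at −0.45. Of the polarity genes 2 of 11 were higher and 2 lower, with Ctnna1 at 0.52 and Dlg1 at −0.41. Of the 5 TEAD and VGLL genes tested 3 were lower, Tead4 (−0.47), Vgll4 (−0.43) and Tead3 (−0.29). Of the 13 targets tested 1 was higher, Dock5 (0.50), and 3 were lower, Igfbp3 (−1.69), Ccdc80 (−0.70) and Ptpn14 (−0.43). The median difference of the targets was −0.05, against −0.03 for all genes. Ccn1 and Ccn2, also listed targets, had higher means in LFABP-/- (27.6 and 54.4, 4.64 and 6.02) and did not pass. With the hepatocyte markers as a covariate 2 of the 72 passed, Dlg1 and Igfbp3, both lower, while differences that no longer passed included Prkci at 0.69, Ctnna1 at 0.55, Snx4 at 0.45 and Map4k3 at −0.44. Without the 3 libraries highest in those markers 20 passed, 9 higher and 11 lower.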

How the data were processed

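The authors aligned single reads from poly(A) RNA to GRCm38 with CLC Genomics Workbench 20.0.4 and Ensembl release 92, per the labels and methods. The deposited gene values carry the header RPKM but sum to between 999967 and 999996 in every library, so they were read as TPM. They are rounded to 1 decimal, hold no counts, and leave depth unknown, so no counting interval is given. Between 16470 and 20502 genes were above 0 per library, and 0 columns of values went unused.

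Values were analysed as log2(value + 0.5), with a filter of a mean of at least 1, by limma 3.58.1 (R 4.3.3) with an intensity trend. Each tissue was fitted alone for genotype. Tissue differences and the interaction were fitted over 30 libraries with the mouse as a block (statmod 1.5.0, consensus correlation −0.016). Calls were made at a Benjamini-Hochberg adjusted p under 0.1 over all genes tested. Single genes were also tested by exact two-sided permutation of 5 against 5 libraries (252 splits, smallest p 0.00794). The fit was tested on simulated data.

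The members, the lists and the tests were chosen with earlier results of these data known. Named besides the members are Fabp1 and Nnt, up to 4 called genes with the smallest p in each pathway list and tissue, the 5 genes most like Wwc1 by Pearson r, and the 3 nearest protein-coding neighbours on each side. Replicates are separate mice, and the numbers of WT and LFABP-/- mice are unrelated. Alternatives changed the pseudocount, filter, scaling, variance trend, blocks, prefix term, marker covariates and libraries included.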

Additional observations from a re-analysis of the deposited data

Results flagged for a closer look

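Within a group of 5 libraries, 4 values stood apart from the other 4 by more than 0.710 of the group's range, among 48 groups of member values examined, and chance alone gives about 1 in 20. Wwc1 was 3.9 in iWAT WT replicate 1 and 2.0 in iWAT LFABP-/- replicate 3, the 2 libraries with raised epithelial markers. Lats2 was 27.1 in iBAT LFABP-/- replicate 1, against 11.3 to 15.4 in the other 4. Amotl2 was 110.5 in iWAT WT replicate 4, against 171.0 to 185.3 in the other 4, and that library had the highest sum of lymphocyte markers, 2151.8. The part of these markers in the values was not tested.

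The genotype difference of Yap1 differed between liver and iWAT, by −0.69 (adjusted p = 0.0234, limma interaction over 13925 genes). In iWAT 4 of 5 WT libraries lay below every LFABP-/- library, while in liver 3 WT libraries (20.1, 23.1 and 21.6) lay above the highest LFABP-/- value, 19.3.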

How the results depend on the processing

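The values hold no counts, and Wwc1 in iBAT WT lies within 2 steps of the rounding, so its fold is imprecise. Only the lowest ratio that rounding allows, 35.3, was computed. The iBAT labels are not checked by Fabp1. The hepatocyte and epithelial alternatives were added after the data had been seen.

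The Wwc1 difference in iBAT was 4.82 with a pseudocount of 0.1 and 2.51 with 1, and in the scaling over 30 libraries 3.70 by median ratio and 4.15 rescaled without mitochondrial and the most abundant genes. In iWAT the Wwc1 difference changed sign to 0.0082 with a pseudocount of 0.1 and to 0.016, 0.099 and 0.045 with lymphocyte, epithelial and skeletal muscle markers as covariate. With 1 library left out it ran from −0.19 to 0.012 (at the latter without LFABP-/- replicate 1, 2, 4 or 5). That range lacks the fits without WT replicate 1 or without LFABP-/- replicate 3, the libraries highest in Wwc1. In those fits the mean of Wwc1 fell below the filter and no value was computed, so the range understates how far 1 library can move it. Wwc2 in iWAT ran from −0.075 to 0.13 (below 0 without WT replicate 4 or LFABP-/- replicate 5). In the interaction, Wwc1 was 0.048 and Amotl2 0.022 under median-ratio scaling, and with 1 library left out Wwc1 ran from −0.56 to 0.10 (above 0 without iWAT WT replicate 3 or 4 or LFABP-/- replicate 3).

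Scaling turned tissue differences. By median ratio, liver minus iWAT was 0.76 for Yap1 and 0.28 for Lats1 in WT, and 0.25 and 0.28 in LFABP-/-. iBAT minus iWAT in LFABP-/- was 0.020 for Wwc2, 0.40 for Lats2, 0.10 for Yap1 and 0.30 for Lats1. Liver minus iBAT for Lats1 was −0.023 in LFABP-/- by median ratio, and when rescaled −0.26 in WT and −0.57 in LFABP-/-. Rescaled, it was −0.47 for Amotl2 in WT and −0.41 for Yap1 in LFABP-/-.

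Counts of called genes in iWAT, 213 as deposited, were 135 with no filter, 100 by median ratio, 57, 1262 and 6 with muscle markers, with lymphocyte markers and without the libraries raised in the latter, and 51 to 318 with 1 library left out (past 1.5 times for WT replicates 2, 3 and 5 and each LFABP-/- replicate). The pathway count there, 1, was 0 by median ratio, 6 with lymphocyte markers, 0 without those libraries and 1 to 2 with 1 left out. In iBAT, 5556 became 3481 with a filter at 5, 561 with hepatocyte markers and 2865 without the 3 libraries highest in them, and the pathway count of 34 became 2 and 20. In liver, 1969 became 746 to 2150 with 1 library left out (past 1.5 times for WT replicate 2 and LFABP-/- replicates 4 and 5), and the pathway count of 21 became 12 with no filter, 10 by median ratio and 8 to 27 with 1 library left out. The interaction's 501 became 330 by median ratio, 327 rescaled and 248 to 1658 with 1 library left out, the extremes without liver WT replicate 2 and iWAT WT replicate 4.

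The replicate numbers pair no WT with any LFABP-/- mouse, and deviations of same-numbered libraries correlated from −0.53 to 0.67. With the number as a block, liver calls fell to 1258 and the pathway count to 11, Wwtr1 and Lats2 in liver had adjusted p of 0.137 and 0.138, and Yap1 in iWAT 0.0717 (limma). The causes of these changes were not tested. Over all named genes and alternatives, including the tissue comparisons in which most genes passed, 3065 values counted as unchanged. For tested values this meant the same direction and side of the threshold, and for values given as a description a shift under 1 SD. Of the rest, 133 fell short of the threshold, 5 newly passed it, 28 changed sign and 12 described values moved by 1 SD or more.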
